A study of Mus musculus with 58 samples.

Results

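The Klhl and Kbtbd genes of mouse skeletal muscle were examined in the limb and in the diaphragm of mice with a human pancreatic tumour. They were taken as every probe set whose platform symbol is Klhl or Kbtbd followed by a number, which gave 46 of the 23185 named genes on the array, with 1 probe set each. All animals were adult female NSG mice, an immunodeficient strain that tolerates human tissue. In the PDX groups, pieces of pancreatic ductal adenocarcinoma from a cachectic patient (a patient-derived xenograft, PDX) were attached to the pancreas. The sham groups were operated on but received no tumour. Mice were killed when the tumour-bearing animals were severely cachectic, that is wasted in muscle and fat, or when the tumour had reached a size limit, so the PDX arrays do not stand for a fixed time after surgery. Tumours of 4 patients gave 4 cohorts, each with its own 3 sham arrays per muscle, and with 3, 5, 5 and 4 PDX arrays in cohorts 1 to 4. The tibialis anterior, a muscle of the shin, and the diaphragm, the main muscle of breathing, thus had 12 sham and 17 PDX arrays each. The labels do not say that every array is a separate animal, so the p-values given here refer to the spread among the arrays.

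Klhl and Kbtbd proteins carry a BTB domain, which binds the scaffold cullin-3, and a propeller of kelch repeats, which binds other proteins. Many of them act as the substrate adaptors of a cullin-3 ubiquitin ligase, an enzyme that tags the bound protein with ubiquitin, often for destruction by the proteasome. Some members are made mainly in striated muscle, where Klhl40 and Klhl41 bind and stabilise proteins of the thin filament, and mutations of KLHL40, KLHL41 and KBTBD13 cause nemaline myopathy in people.

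The promoters of 4 members are shown because their transcripts took 4 different courses under the tumour: Kbtbd13 fell in both muscles, Klhl21 rose in the limb and fell in the diaphragm, Klhl34 fell in the limb, and Klhl31 fell in the diaphragm. Each sequence is the 250 bases before the start of the gene, from RefSeq, build GRCm38.p6, read 5′ to 3′ on the strand of the gene. They lie at chr9:65391653-65391902 (minus strand) for Kbtbd13, chr4:152008641-152008890 (plus strand) for Klhl21, chr9:77636482-77636731 (plus strand) for Klhl31 and chrX:157818185-157818434 (plus strand) for Klhl34. Capitals mark the matches found for the E-box CAGCTG, the MEF2 pattern (CTA and TAG with any 4 bases between them), the FoxO pattern TGTTTAC and the glucocorticoid receptor hexamer AGAACA, on either strand.
Kbtbd13: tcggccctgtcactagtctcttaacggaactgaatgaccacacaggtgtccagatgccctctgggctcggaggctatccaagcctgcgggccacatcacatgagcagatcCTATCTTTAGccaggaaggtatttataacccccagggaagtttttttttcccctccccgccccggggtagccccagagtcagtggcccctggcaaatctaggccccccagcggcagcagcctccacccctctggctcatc
Klhl21: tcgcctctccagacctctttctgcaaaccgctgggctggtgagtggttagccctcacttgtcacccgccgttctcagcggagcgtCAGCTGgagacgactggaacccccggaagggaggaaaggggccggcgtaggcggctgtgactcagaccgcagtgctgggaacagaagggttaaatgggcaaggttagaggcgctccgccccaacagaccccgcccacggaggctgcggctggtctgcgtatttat
Klhl31: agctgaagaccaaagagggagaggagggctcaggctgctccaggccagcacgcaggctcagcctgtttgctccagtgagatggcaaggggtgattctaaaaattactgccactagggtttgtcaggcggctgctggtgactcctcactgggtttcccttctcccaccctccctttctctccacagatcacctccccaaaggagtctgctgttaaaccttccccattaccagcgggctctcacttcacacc
Klhl34: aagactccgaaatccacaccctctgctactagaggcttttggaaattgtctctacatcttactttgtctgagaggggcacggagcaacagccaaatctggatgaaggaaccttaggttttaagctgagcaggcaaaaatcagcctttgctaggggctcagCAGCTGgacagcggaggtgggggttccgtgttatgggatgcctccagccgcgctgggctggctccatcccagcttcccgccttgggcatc
Kbtbd13 held a MEF2 pattern at position -140, Klhl21 an E-box at -165 and Klhl34 an E-box at -90, counted from the start, and none of the 4 patterns was in this window of Klhl31. A promoter entry was found for 38 of the 46 members, with 50 starts in all. The E-box was in 10 of these 50 promoters (20%) and in 13.0% of the 32851 RefSeq promoters, the MEF2 pattern in 4 (8%) and in 3.20%, the FoxO pattern in 0 and in 3.17%, and the hexamer in 9 (18%) and in 16.1%. Apart from Kbtbd13, the MEF2 pattern was in the promoters of Klhl33 at -50, Kbtbd12 at -91 and Klhl41 at -63, all of them in the striated muscle group. These are matches of letters, and binding was not measured.

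Values are log2 expression from RMA, a method that corrects the background, equalises the arrays and summarises the probes of a set, so a difference of 1 is a factor of 2. Array medians lay between 3.702 and 3.862. Of the members, 34 had a mean above the median of all probe sets (3.78) and 12 were at or below it: Kbtbd3, Kbtbd6, Kbtbd8, Kbtbd11, Klhl1, Klhl3, Klhl10, Klhl14, Klhl25, Klhl32, Klhl35 and Klhl36. A difference is called when limma's Benjamini-Hochberg adjusted p over all 23185 genes is under 0.05, and only called differences are said to have risen or fallen. The skeletal muscle markers Acta1 and Ckm averaged 11.97 and 11.72 in the sham tibialis anterior and 11.97 and 11.37 in the sham diaphragm. Myh7, the slow myosin, averaged 3.47 in the limb and 9.15 in the diaphragm. Of 10 hepatocyte markers, all 10 were higher in the sham diaphragm than in the sham tibialis anterior. Their summed log2 signal ran from 36.52 to 57.13 in the sham tibialis anterior, 36.78 to 63.15 in its PDX arrays, 42.73 to 108.14 in the sham diaphragm and 42.48 to 110.65 in its PDX arrays. The list averaged above 8 in 11 diaphragm arrays, 5 sham and 6 PDX, and in 0 limb arrays. Counts of members called in the diaphragm, and the differences of some members, are therefore also given without those 11. Leaving them out keeps only 1 sham and 1 PDX diaphragm array in cohort 1 and 1 sham diaphragm array in cohort 3. The cohorts keep equal weight, so that fit leans on single arrays. Whether a call lost in it came from hepatocyte RNA or from fewer arrays was not tested. The diaphragm values of the ligase, substrate and other BTB-kelch genes and of the markers are given with all arrays only. One tibialis anterior array, cohort 3 PDX replicate 1, stood apart: its median correlation with the other limb arrays was 0.945, and it held the lowest limb value of 15 members and the highest of 5.

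In the tibialis anterior, 8 of the 46 members changed (17.4%), beside 12.8% of all genes: 4 rose (6.32% of all genes did) and 4 fell (6.53%). Klhl38, Klhl21, Klhl7 and Klhl11 rose, and Kbtbd13, Klhl29, Klhl34 and Klhl23 fell. All 8 had the same sign in each of the 4 cohorts. In the diaphragm, 14 members changed (30.4%), beside 12.5% of all genes: 2 rose, Klhl4 and Klhl5, and 12 fell, beside 5.89% and 6.58% of all genes. Those that fell were Klhl30, Klhl23, Klhl33, Kbtbd13, Klhl31, Klhl21, Kbtbd12, Klhl8, Kbtbd4, Klhl9, Klhl24 and Klhl28, and 11 of the 14 kept 1 sign in all cohorts. The median log2 difference of the members was -0.08 in the limb and -0.16 in the diaphragm, against -0.0051 and -0.0043 over all genes. Only Kbtbd13, Klhl23 and Klhl21 were called in both muscles, and 27 members in neither. None of the 12 dim members was called for the tumour in either muscle. The shares of all genes given beside the members include dim genes and are not matched to the members in signal. With arrays centred on their own median, the limb calls split into 6 higher and 3 lower, and after another quantile normalization into 5 and 3. Without the 11 diaphragm arrays high in hepatocyte markers, 9 diaphragm members passed, 1 higher and 8 lower, of which 8 were also called with all arrays. Klhl31, Klhl33, Kbtbd12, Kbtbd4 and Klhl5 lost their diaphragm calls without those arrays but kept them with each array's mean hepatocyte signal as a covariate. With that covariate their differences were -0.44, -0.64, -0.38, -0.33 and 0.29 (limma adjusted p = 0.00196, 0.0127, 9.75e-04, 0.00714 and 0.00274). In bulk muscle, fewer cells of a type and less RNA per cell cannot be told apart.

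**Figure D1:**
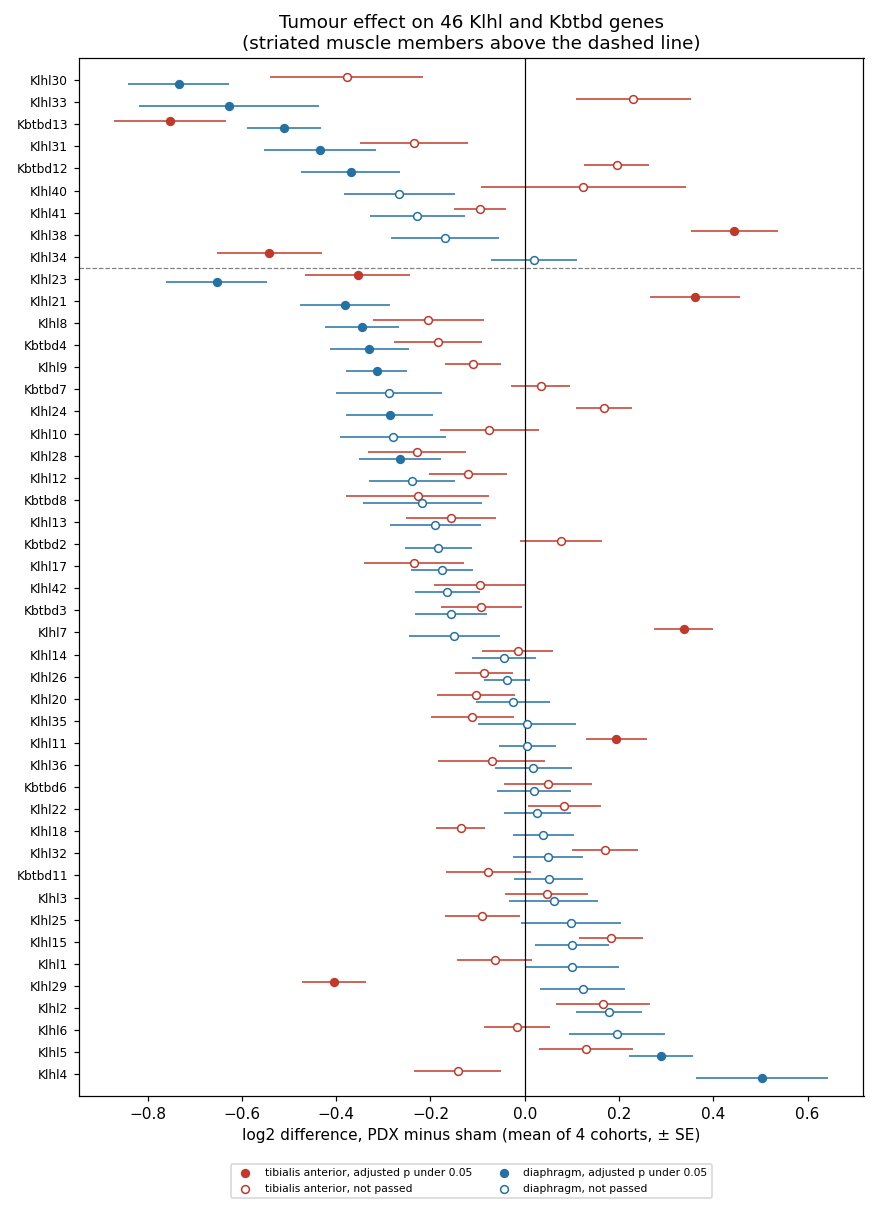
Log2 difference of PDX minus sham (mean of 4 cohorts, bars are limma's standard errors) for the 46 members in the tibialis anterior (red) and the diaphragm (blue); filled points passed at adjusted p under 0.05, and the members above the dashed line are the striated muscle group. Most filled blue points lie left of 0 (12 of 14), while the filled red points are divided evenly (4 and 4).

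Levels of other tissue components moved with the tumour. In the tibialis anterior, 6 of 7 tendon markers and 6 of 6 fibroblast markers fell. The summed tendon signal ran from 37.00 to 49.99 in sham and from 27.61 to 40.69 in PDX limb arrays, and the summed fibroblast signal from 41.41 to 45.93 and from 29.39 to 41.20. In the diaphragm, 3 of 6 fibroblast and 5 of 6 measured macrophage markers rose, the macrophage sum running from 35.42 to 41.39 in sham and 38.70 to 48.58 in PDX. Of 10 skeletal muscle markers, 1 rose and 2 fell in the limb and 1 fell in the diaphragm, with sums of 97.40 to 101.09 in sham limb, 95.43 to 99.91 in PDX limb, 104.97 to 110.83 in sham diaphragm and 99.89 to 109.86 in PDX diaphragm. With the mean tendon signal of each array as a covariate, 0 members were called in the limb, where 1 of all 23185 genes passed and standard errors were 2.19 times as large at the median. At an unadjusted p under 0.05 that fit gave 4 members and 1232 genes. The 4 members that fell stood at -0.56 (Kbtbd13), -0.38 (Klhl29), -0.38 (Klhl34) and -0.52 (Klhl23) in it, and the 4 that rose at 0.28 (Klhl38), 0.04 (Klhl7), -0.048 (Klhl21) and -0.078 (Klhl11). The part of the fibroblast and macrophage signals in the member differences was not tested.

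The striated muscle list has 11 names, of which Kbtbd5 and Kbtbd10 are older symbols with no probe set. Among its 9 measured members, 3 changed in the limb (Klhl38 up, Kbtbd13 and Klhl34 down) and 5 fell in the diaphragm (Klhl30, Klhl33, Kbtbd13, Klhl31 and Kbtbd12) with 0 rising. Of all genes, 12.8% and 12.5% were called. The group's median was -0.10 in the limb and -0.37 in the diaphragm. The other 37 members had medians of -0.08 and -0.04, with 5 called in the limb (3 up, 2 down) and 9 in the diaphragm (2 up, 7 down).

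Kbtbd13, an adaptor that localises to the sarcomere and modulates thin filaments, had sham limb values of 5.61 to 6.31 (median 5.94) and PDX values of 3.99 to 5.92 (median 5.31). Diaphragm values were 5.30 to 5.85 (median 5.64) in sham and 4.51 to 5.62 (median 5.08) in PDX. The pooled groups overlapped in both muscles, but every PDX array lay below every sham array in cohorts 1 and 3 of the limb and in cohorts 1 and 4 of the diaphragm. Kbtbd13 fell by 0.75 in the tibialis anterior (log2 scale, SE 0.118, a ratio of 0.594; limma adjusted p = 6.65e-05) and by 0.51 in the diaphragm (SE 0.0782, a ratio of 0.702; adjusted p = 1.06e-04). The cohort differences were -0.81, -0.36, -1.33 and -0.51 in the limb and -0.27, -0.42, -0.37 and -0.98 in the diaphragm, for cohorts 1 to 4. The difference between the muscle effects was 0.24 (95% interval -0.04 to 0.53, adjusted p = 0.397).

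Klhl30, one of the kelch genes enriched in striated muscle, had diaphragm values of 5.41 to 6.15 (median 5.82) in sham and 4.35 to 5.46 (median 5.14) in PDX arrays. The pooled groups overlapped only slightly, and every PDX array lay below every sham array in cohorts 1, 2 and 4. Klhl30 fell by 0.73 (SE 0.107, a ratio of 0.601; adjusted p = 6.79e-05), with -0.60, -0.87, -0.46 and -1.01 in the 4 cohorts. In the limb, sham values ran from 6.39 to 7.49 (median 7.02) and PDX values from 6.09 to 8.97 (median 6.45), the highest being the array that stood apart. The limb difference of -0.38 missed the threshold (adjusted p = 0.140), and without that array it was -0.48 (adjusted p = 3.84e-04).

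Klhl31, needed for normal skeletal muscle growth in the mouse, ran in the diaphragm from 9.49 to 10 (median 9.81) in sham and from 8.63 to 9.81 (median 9.37) in PDX arrays. Its PDX arrays spread further down, with overlap at the top. It fell by 0.43 in the diaphragm (SE 0.119, a ratio of 0.740; adjusted p = 0.0158), and without the 11 arrays high in hepatocyte markers the difference was -0.35 (adjusted p = 0.0857). In the limb, values were 10.34 to 10.57 (median 10.43) in sham and 8.63 to 10.66 (median 10.28) in PDX, a difference of -0.23 that did not pass (adjusted p = 0.216). The limb minimum was again cohort 3 PDX replicate 1.

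Klhl33, also enriched in striated muscle, moved apart between the muscles. Its limb values were 6.45 to 8.08 (median 7.24) in sham and 6.37 to 8.12 (median 7.36) in PDX arrays. Its diaphragm values were 6.93 to 8.03 (median 7.38) in sham and 5.36 to 7.70 (median 7.11) in PDX. The groups overlapped widely in both muscles, but every PDX array lay above every sham array in cohort 1 of the limb and below in cohort 4 of the diaphragm. Klhl33 fell by 0.63 in the diaphragm (SE 0.191, a ratio of 0.647; adjusted p = 0.0304), while the limb difference was 0.23 (adjusted p = 0.263). The diaphragm effect was lower than the limb effect by a log2 difference of -0.86 (SE 0.234; adjusted p = 0.0166). The diaphragm call was lost when any of 7 of the 29 arrays was left out, with differences of -0.70 to -0.54 over all 29 omissions. The 7 were cohort 1 PDX replicates 2 and 3, cohort 2 sham replicates 1 and 2, cohort 3 sham replicate 3, and cohort 4 sham replicate 1 and PDX replicate 2. Without the 11 arrays high in hepatocyte markers the diaphragm difference was -0.69 (adjusted p = 0.0656).

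Klhl34 showed the opposite order. Limb values were 4.65 to 5.64 (median 5.15) in sham and 4.26 to 5.21 (median 4.64) in PDX arrays, and diaphragm values were 4.09 to 4.93 (median 4.69) and 4.25 to 5.14 (median 4.68). In the limb the PDX arrays sat lower with overlap, and in the diaphragm the ranges nearly coincided. Klhl34 fell by 0.54 in the limb (SE 0.112, a ratio of 0.687; adjusted p = 0.00130), with a diaphragm difference of 0.02 (95% interval -0.16 to 0.20). The effects differed by 0.56 (SE 0.148; adjusted p = 0.0132), and by 0.60 without the 11 diaphragm arrays, where the adjusted p was 0.0683.

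Klhl38, a muscle kelch gene, rose in the limb. Its limb values ran from 8.39 to 9.38 (median 8.87) in sham and from 8.77 to 9.83 (median 9.28) in PDX, and its diaphragm values from 7.90 to 8.93 (median 8.65) and from 7.84 to 8.88 (median 8.42). The limb PDX arrays were shifted upward with overlap, except in cohort 4, where all of them lay above the sham arrays. The limb rise was 0.44 (SE 0.0923; adjusted p = 0.00136), and the cohort differences were 0.43, 0.10, 0.49 and 0.75. The diaphragm difference was -0.17 (adjusted p = 0.425), or -0.32 without the 11 arrays high in hepatocyte markers (adjusted p = 0.0436), and the effects differed by -0.61 (SE 0.150; adjusted p = 0.00678).

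Klhl40 and Klhl41, the thin filament stabilisers, were not called for the tumour in either muscle. Klhl40 ran from 6.13 to 7.57 (median 6.56) in sham limb and from 5.80 to 10.13 (median 6.71) in PDX limb, with differences of 0.12 in the limb and -0.27 in the diaphragm (adjusted p = 0.820 and 0.166). The value of 10.13 is cohort 3 PDX replicate 1, and without it the limb difference was -0.02. Klhl41 ran from 9.20 to 9.67 (median 9.52) in sham limb and from 8.90 to 9.58 (median 9.41) in PDX limb, with differences of -0.10 and -0.23 (adjusted p = 0.320 and 0.158). Without adjustment for the number of genes, intervals of 95% for the diaphragm were -0.50 to -0.03 for Klhl40 and -0.42 to -0.03 for Klhl41. With a hepatocyte covariate Klhl41 passed there (-0.24, adjusted p = 0.0363). Kbtbd12 fell by 0.37 in the diaphragm (SE 0.105; adjusted p = 0.0193), where sham values were 3.61 to 4.30 (median 3.93) and PDX values 3.04 to 4.09 (median 3.54). The PDX mean of 3.57 lies below the median signal. The limb difference was 0.19 (adjusted p = 0.0617; it was 0.17 to 0.22 over 29 omissions of an array and passed in 6 of them), and the effects differed by -0.56 (adjusted p = 0.00266). Without the 11 diaphragm arrays, the diaphragm difference of Kbtbd12 was again -0.37 (adjusted p = 0.0519).

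**Figure D2:**
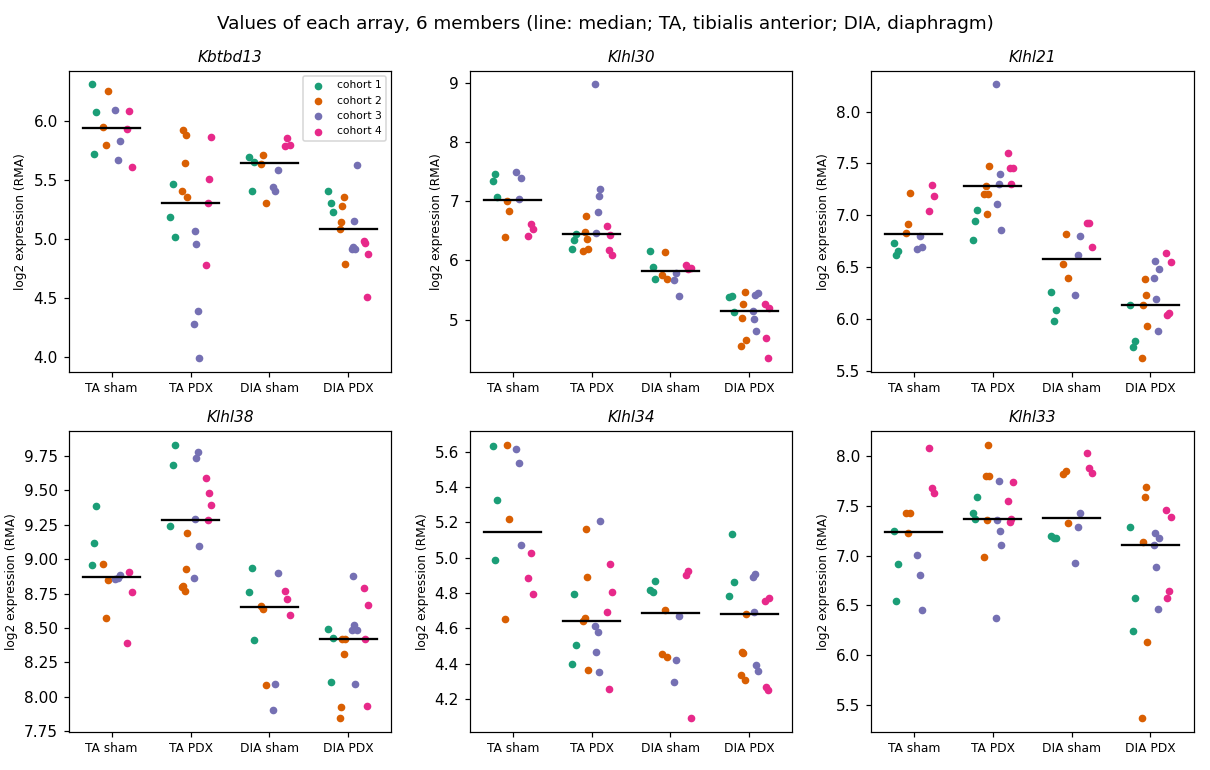
Log2 expression on each array for Kbtbd13, Klhl30, Klhl21, Klhl38, Klhl34 and Klhl33 in sham and PDX tibialis anterior (TA) and diaphragm (DIA); colours are cohorts and lines are medians over 12 sham or 17 PDX arrays. Klhl21 lies higher in PDX than in sham limb (medians 7.29 and 6.82) and lower in PDX than in sham diaphragm (6.13 and 6.58), and single limb arrays stand high for Klhl30 (8.97) and Klhl21 (8.26).

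Of the 20 members listed as adaptors with a named substrate, 2 rose and 0 fell in the limb. In the diaphragm 0 of them rose and 4 fell. Of all genes, 12.8% and 12.5% were called in either direction. Klhl21, an adaptor for Aurora B kinase in dividing cells, was called in opposite directions. Limb values were 6.61 to 7.29 (median 6.82) in sham and 6.76 to 8.26 (median 7.29) in PDX arrays, and diaphragm values 5.98 to 6.93 (median 6.58) and 5.63 to 6.64 (median 6.13). Every PDX array was above every sham array in limb cohorts 1, 3 and 4, and below in diaphragm cohorts 2 and 4. Klhl21 rose by 0.36 in the limb (SE 0.0958, 1.28-fold; adjusted p = 0.0110) and fell by 0.38 in the diaphragm (SE 0.0950, a ratio of 0.768; adjusted p = 0.00800). The cohort differences were 0.25, 0.25, 0.66 and 0.28 in the limb and -0.23, -0.52, -0.25 and -0.53 in the diaphragm. With the tendon covariate the limb difference was -0.048 (adjusted p = 0.998). The difference of the effects was -0.74 (SE 0.137, limma adjusted p = 2.70e-04). It passed under the 12 other settings tried for it (-0.83 to -0.65) and with any 1 of the 58 arrays left out (-0.78 to -0.69). The tendon covariate and cohort as the replicate were not run for this difference. With cohort as the replicate, Klhl21 lost its call in the limb and in the diaphragm.

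Klhl7, mutated in a form of retinitis pigmentosa, rose in the limb. Sham values there were 7.01 to 7.42 (median 7.17) and PDX values 7.0 to 7.85 (median 7.499), higher throughout in cohorts 1 and 3. The rise was 0.34 (SE 0.0623, 1.26-fold; adjusted p = 4.41e-04), the diaphragm difference was -0.15 (adjusted p = 0.392), the limb difference with the tendon covariate was 0.04 (adjusted p = 0.998) and the effects differed by -0.49 (adjusted p = 0.00458). Klhl24, an adaptor for keratin 14, ran in the diaphragm from 8.65 to 9.37 (median 9.07) in sham and from 8.18 to 9.07 (median 8.79) in PDX. It fell by 0.29 there (SE 0.0922; adjusted p = 0.0414), a call lost in 15 of 29 omissions of an array (-0.33 to -0.24 over all 29). The limb difference was 0.17 (adjusted p = 0.0653), and the effects differed by -0.45 (adjusted p = 0.00585).

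Klhl9, which works with Klhl13 on Aurora B, fell by 0.31 in the diaphragm (SE 0.0650; adjusted p = 0.00187), from 6.76 to 7.51 (median 7.21) in sham to 6.30 to 7.30 (median 6.82) in PDX. Kbtbd4 fell there by 0.33 (SE 0.0832, limma adjusted p = 0.00878), from 5.72 to 6.77 (median 6.25) in sham to 5.39 to 6.39 (median 5.89) in PDX. Sham and PDX ranges overlapped for both genes. Klhl9 kept its call without the 11 arrays high in hepatocyte markers, and Kbtbd4 did not (-0.28, adjusted p = 0.197). Klhl8 fell by 0.35 in the diaphragm (adjusted p = 0.00427) and Klhl28 by 0.26 (adjusted p = 0.0463). The Klhl28 call was lost in 20 of 29 omissions of an array (-0.31 to -0.22 over all 29), and without the 11 arrays its difference was -0.30 (adjusted p = 0.0881).

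Klhl23 was the second gene lower in both muscles. Its diaphragm values were 3.83 to 4.98 (median 4.70) in sham and 3.38 to 4.45 (median 3.92) in PDX, and the PDX arrays lay wholly below in cohorts 1 and 4. It fell by 0.65 in the diaphragm (SE 0.107, a ratio of 0.636; adjusted p = 2.04e-04) and by 0.35 in the limb (adjusted p = 0.0330), where the PDX mean of 3.57 lay below the median signal. The limb call was lost when any of 9 arrays was left out: cohort 1 sham replicates 1 and 3 and PDX replicates 1 and 3, cohort 2 sham replicate 1, cohort 3 sham replicate 1, and cohort 4 sham replicates 1 and 2 and PDX replicate 3 (-0.39 to -0.31 over all 29 omissions). Klhl29 fell in the limb by 0.40 (SE 0.0680, a ratio of 0.756; adjusted p = 1.49e-04). Its limb values were 4.66 to 5.25 (median 4.88) in sham and 4.30 to 4.90 (median 4.48) in PDX, wholly below in cohorts 1, 2 and 3. Its diaphragm difference was 0.12 (adjusted p = 0.472), and the effects differed by 0.53 (adjusted p = 0.00157). Klhl11 rose by 0.19 in the limb (SE 0.0649; adjusted p = 0.0470), a call lost in 19 of 29 omissions (0.17 to 0.22 over all 29).

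Klhl4 and Klhl5 were the 2 members that rose in the diaphragm. Klhl4 ran from 4.09 to 5.76 (median 4.87) in sham and from 3.84 to 6.51 (median 5.41) in PDX, the widest diaphragm spread of all members. It rose by 0.50 (SE 0.140, 1.42-fold; adjusted p = 0.0175), but the cohorts were divided: 0.63, 1.01 and 0.68 in cohorts 1 to 3 and -0.31 in cohort 4. In cohort 4, PDX replicate 3, one of the 11 arrays high in hepatocyte markers, stood at 3.84 and the other PDX arrays at 4.70 to 5.45. Without those 11 arrays the diaphragm difference of Klhl4 was 0.58. Its limb difference was -0.14 (limma adjusted p = 0.391), and the effects differed by 0.64 (adjusted p = 0.0135). Klhl5 rose by 0.29 (SE 0.0672; adjusted p = 0.00479), from 4.28 to 4.90 (median 4.48) in sham to 4.40 to 5.15 (median 4.83) in PDX, with differences of 0.43, 0.54, -0.02 and 0.20. Without the 11 arrays Klhl5 stood at 0.31 (adjusted p = 0.0811).

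Taking the muscles against each other, 9 of the 46 members had tumour effects that differed between diaphragm and limb (19.6%), beside 6.33% of all genes. The diaphragm effect was higher for 3 (Klhl4, Klhl34 and Klhl29; 3.66% of all genes) and lower for 6 (Klhl33, Klhl21, Klhl38, Kbtbd12, Klhl7 and Klhl24; 2.67%). Klhl21 was the one called in both muscles with opposite signs. Only Klhl21 and Klhl29 kept their call for the difference without cohort 1. The count fell to 2 without cohort 1, and was 8 without each of the other cohorts in turn and without the 11 diaphragm arrays.

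The 4 tumours were compared by an F test for unequal cohort effects. It called 0 members in the limb and 0 in the diaphragm, beside 0.0129% and 0.00431% of all genes (3 genes and 1 gene). At an unadjusted p under 0.05 it gave 2 and 3 members. With 1 cohort left out at a time, Kbtbd13 kept its call in both muscles, as did Klhl30 and Klhl23 in the diaphragm and Klhl21, Klhl7, Klhl29 and Klhl34 in the limb. In the limb, Klhl38 lost its call without cohort 4, Klhl23 without cohort 1, 3 or 4, and Klhl11 without cohort 1, 2 or 3. In the diaphragm, Kbtbd12 lost it without cohort 1, Klhl8 without 4, Klhl9 without 3, Kbtbd4 without 1 or 4, Klhl5 without 1 or 2, Klhl21 without 2 or 4, Klhl31 without 1, 2 or 4, Klhl33 without 1, 3 or 4, Klhl4 without 1, 2 or 3, Klhl28 without 1, 3 or 4, and Klhl24 without any of the 4.

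**Figure D3:**
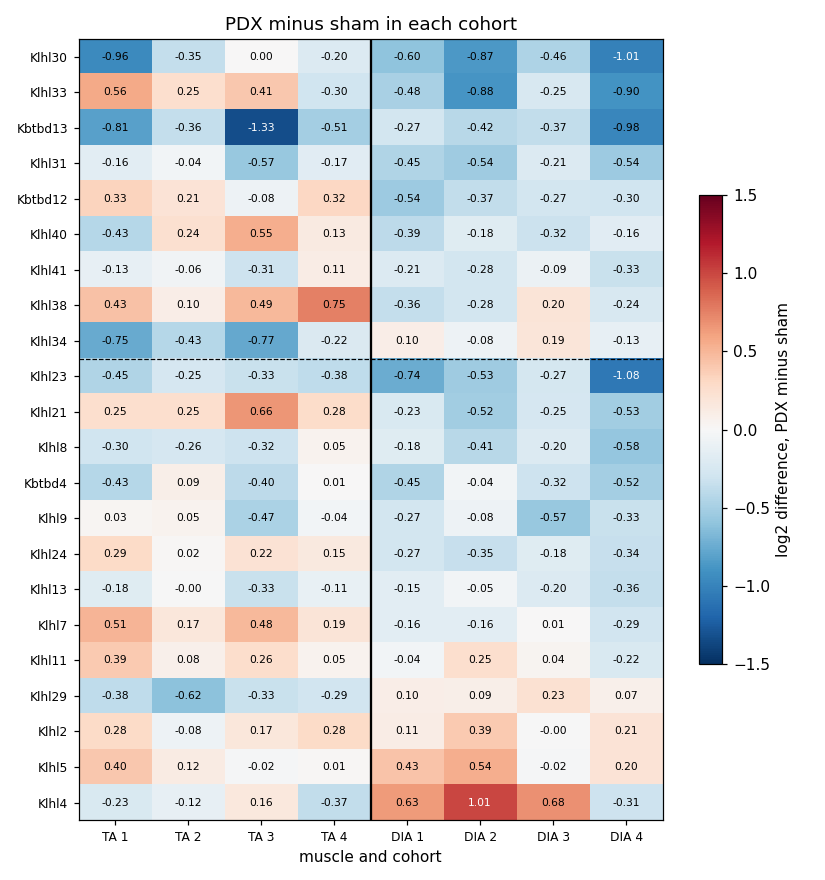
Log2 difference of PDX minus sham in each cohort and muscle (columns; TA, tibialis anterior; DIA, diaphragm) for the members described by group (rows), with blue for lower and red for higher in PDX. Kbtbd13 is negative in all 8 columns (-1.33 to -0.27), Klhl21 is positive in the 4 limb columns and negative in the 4 diaphragm columns, and Klhl4 is positive in diaphragm cohorts 1 to 3 and negative in cohort 4 (-0.31).

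Without tumour, 25 of the 46 members differed between sham diaphragm and sham tibialis anterior (54.3%), beside 39.7% of all genes. Of these, 8 were higher in the diaphragm (15.2% of all genes) and 17 were lower (24.5%). In the striated muscle group, 0 were higher and 7 of 9 lower, with a median of -0.36, against -0.07 for the other 37 members and -0.09 for all genes. Of those 7, Kbtbd12, Kbtbd13, Klhl38 and Klhl41 lost their calls with the mean hepatocyte signal as a covariate, and Klhl33 then passed as higher. In the sham diaphragm, 6 of 6 mesothelium, 6 of 6 measured macrophage and 4 of 6 fibroblast markers were also higher, with 0 lower. For endothelium 3 of 6 and for nerve 2 of 4 were higher. For tendon 1 of 7 and for B cells 3 of 5 were lower. The part of these components in the member differences was not tested. For 5 members the 12 sham arrays of one muscle did not overlap the 12 of the other (10.9%), beside 4.79% of all genes: Klhl13 and Klhl5 were higher and Klhl30, Klhl31 and Klhl8 lower in the diaphragm. Without the 11 diaphragm arrays high in hepatocyte markers, 15 members passed, 7 higher and 8 lower, all 15 among the 25.

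Klhl13, the partner of Klhl9, ran from 4.00 to 5.28 (median 4.62) in sham limb and from 5.39 to 6.40 (median 5.86) in sham diaphragm. It was 2.33-fold higher in the diaphragm (log2 1.22, SE 0.105; adjusted p = 2.83e-13), with 1.13 to 1.41 in the 4 cohorts, and without the 11 arrays the difference was 1.32. Klhl30, by contrast, was lower in the diaphragm by a log2 difference of -1.15 (SE 0.154, a ratio of 0.452; adjusted p = 4.51e-08), with the sham ranges given above apart. Klhl31 stood at -0.70 (SE 0.130, a ratio of 0.616; adjusted p = 2.35e-05) and Klhl8 at -0.83 (SE 0.111, a ratio of 0.562; adjusted p = 4.05e-08). Klhl8 ran from 4.81 to 5.68 (median 5.31) in sham limb and from 4.12 to 4.75 (median 4.50) in sham diaphragm. These 4 kept their calls in all settings tried.

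Klhl34 was lower in the diaphragm by -0.58 (adjusted p = 4.41e-05), Klhl29 by -0.41 (adjusted p = 1.16e-04) and Klhl41 by -0.32 (adjusted p = 0.00287). Kbtbd12 (-0.36), Kbtbd13 (-0.34), Klhl21 (-0.37) and Klhl38 (-0.34) were also lower, but these 4 calls were lost without the 11 diaphragm arrays (-0.21, -0.25, -0.24 and -0.12) and with a hepatocyte term, the mean signal of the marker list on each array as a covariate. Klhl41 was -0.22 without those arrays (adjusted p = 0.0156) and lost its call with the term (-0.11, adjusted p = 0.330). On the other side, Klhl4 was 0.88 higher in the diaphragm (adjusted p = 3.89e-07), Klhl23 0.57 (adjusted p = 1.73e-04), Klhl2, an actin-binding adaptor for WNK kinases, 0.56 (adjusted p = 3.58e-06), Klhl5 0.53 (adjusted p = 8.72e-06), Klhl6 0.43 and Klhl24 0.33 (adjusted p = 0.00151). Klhl33 and Klhl40 were not called (0.29 and -0.40, adjusted p = 0.189 and 0.101). With the hepatocyte term Klhl33 was called higher (0.51, adjusted p = 0.0464), but without the 11 arrays it was not (0.39, adjusted p = 0.127). The spread in this fit comes from all arrays, tumour-bearing ones included. Without limb cohort 3 PDX replicate 1, Klhl40 was called lower (-0.40, adjusted p = 0.00859). With the hepatocyte term it was not (-0.23, adjusted p = 0.480). The dim members Klhl1 and Klhl35 were called lower, at signals below the median of all probe sets.

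**Figure D4:**
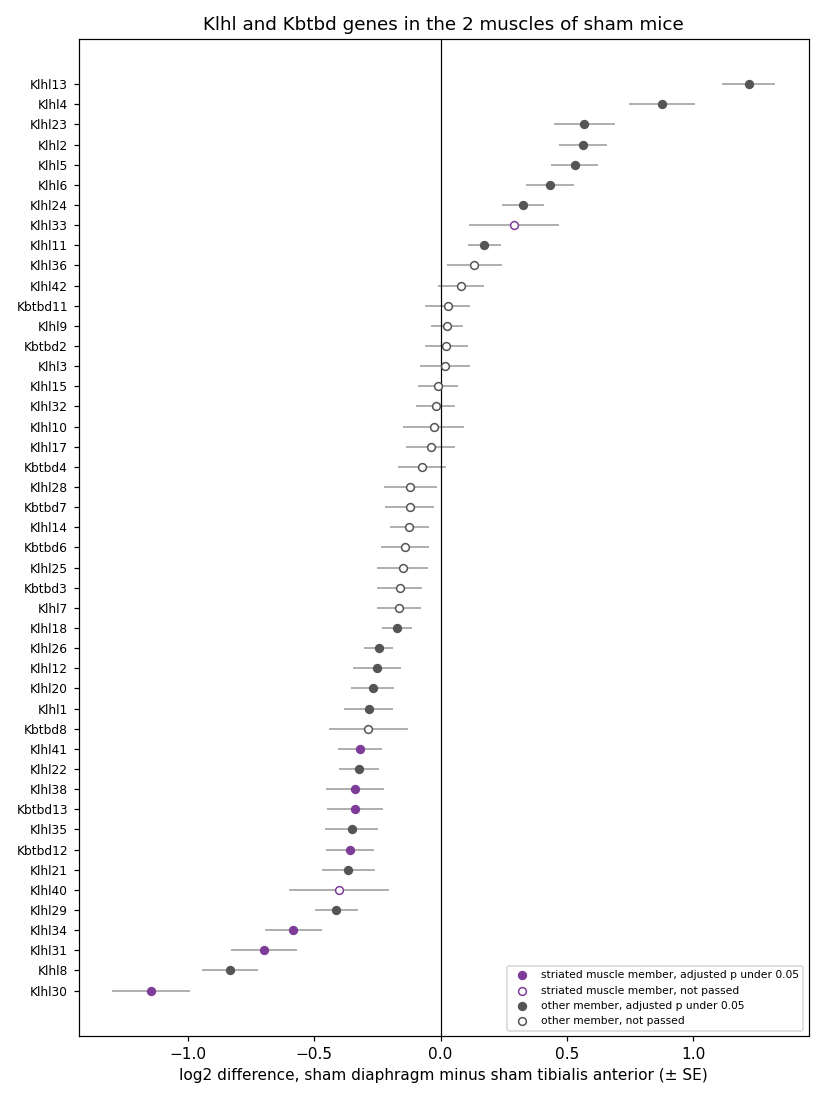
Log2 difference of sham diaphragm minus sham tibialis anterior (bars are limma's standard errors) for the 46 members, with the striated muscle group in purple; filled points passed at adjusted p under 0.05. Klhl13 lies farthest right (1.22) and Klhl30 farthest left (-1.15), and the 7 filled purple points all lie left of 0.

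The rest of the ligase was read from a list of cullin-3, its neddylation enzymes and the COP9 signalosome, which removes the activating NEDD8 tag; 22 of 23 genes were measured. In the limb 2 rose and 2 fell (median -0.05), in the diaphragm 0 rose and 7 fell (median -0.14), and in sham muscle 1 was higher and 14 lower in the diaphragm (median -0.32). The shares of all genes called in these comparisons were 12.8%, 12.5% and 39.7%. Cul3 itself was not called for the tumour and was lower in the sham diaphragm (-0.64, adjusted p = 1.39e-11), at 9.55 to 9.87 in sham limb and 8.73 to 9.39 in sham diaphragm. Dcun1d2, which helps attach NEDD8 to cullins, fell by 0.39 in the limb and 0.59 in the diaphragm (adjusted p = 0.00881 and 5.16e-04), and Senp8, a NEDD8 protease, by 0.31 and 0.47, though Senp8 lay below the median signal. Cops5, the catalytic COP9 subunit, rose by 0.28 in the limb (adjusted p = 0.00260), and its effects differed between muscles by -0.31 (adjusted p = 0.0146).

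Of 27 named substrates and partners of the adaptors, 26 were measured. In the limb 4 rose and 3 fell, in the diaphragm 3 rose and 1 fell, and in sham muscle 8 were higher and 7 lower in the diaphragm, again beside 12.8%, 12.5% and 39.7% of all genes. Lmod3, the leiomodin that Klhl40 stabilises, fell by 0.43 in the limb and 0.53 in the diaphragm (adjusted p = 0.0115 and 0.00519), from sham medians of 6.80 and 7.26 to PDX medians of 6.50 and 6.76. Neb, the giant thin filament protein nebulin, was not called, with ratios of 1.05 and 0.978 (adjusted p = 0.227 and 0.881). Pik3r1, the regulatory subunit of PI3 kinase and a substrate of Kbtbd2, rose 1.75-fold in the limb and 1.32-fold in the diaphragm (adjusted p = 8.85e-06 and 0.00213), while Kbtbd2 was not called (ratios 1.05 and 0.881). Eif4ebp1, the translation repressor 4E-BP1 and a substrate of Klhl25, rose 1.83-fold in the diaphragm (adjusted p = 1.93e-04), and its dim adaptor Klhl25 was not called (ratio 1.07).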

How the data were processed

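Biotin-labelled RNA of both muscles was measured on Affymetrix arrays. The authors deposited log2 values of 25206 probe sets on 58 arrays, and the submitters' processing notes name RMA, affy 1.36.1 and R 2.15.1. The sources used here do not give the probe set definitions, the genome build or whether the cohorts were normalized jointly. The number of arrays limits the precision. Probe sets were named through the platform annotation: 23185 had 1 symbol, 2021 had none and 0 had several, and all were tested without a filter on dim genes.

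Fits were made with limma 3.58.1 in R 4.3.3 (statmod 1.5.0). Within each muscle every cohort's sham and PDX arrays had their own mean, and PDX minus sham was averaged over the 4 cohorts with equal weight to give the tumour effect. The difference between muscles and the sham contrast came from 1 fit of all 58 arrays with 16 groups, and cohort effects were compared with a moderated F test. Calls use a two-sided Benjamini-Hochberg adjusted p under 0.05 over all 23185 genes. The steps were tested on simulated data. The labels do not say whether limb and diaphragm samples of equal number share a mouse. Sham and PDX samples of equal number come from different mice. The numbers were not used as pairs in the fits reported. Correlations of deviations from the group means ran from -0.586 to 0.647 over the 24 sham and PDX pairs. Over the 29 pairs of muscles they ran from -0.222 to 0.222.

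The members and lists were chosen with earlier results of these data known. Values by group are given for the striated muscle members and for up to 6 other called members with the largest differences per test; other called members are named or given by counts. Alternatives were normalization, an intensity trend, array weights, a brightness filter, hepatocyte and tendon covariates, blocks, cohort as the replicate, and leaving out arrays or cohorts. Leaving out diaphragm arrays with a hepatocyte mean above 8 was chosen after seeing the data, as were the omissions tried for Klhl28.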

Additional observations from a re-analysis of the deposited data

Results flagged for a closer look

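Tumour effects that differed between the muscles, diaphragm minus tibialis anterior on the log2 scale, were found by limma for 9 members: Klhl33 (-0.86), Klhl21 (-0.74), Klhl38 (-0.61), Kbtbd12 (-0.56), Klhl7 (-0.49), Klhl24 (-0.45), Klhl29 (0.53), Klhl34 (0.56) and Klhl4 (0.64). Without cohort 1, only Klhl21 and Klhl29 kept these calls.

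Single arrays stood far from the others of their cohort and group in 14 of 132 groups tested with Dixon's criterion, which chance marks in about 1 of 20. Each of the 132 is 1 member in 1 group, so the tests share arrays. Groups of 3 arrays, which are all sham groups and those of cohort 1, were not tested. Only PDX arrays of the other cohorts could thus be marked. In the tibialis anterior, cohort 3 PDX replicate 1 was low for Klhl31 (8.63, the others 10.02 to 10.27) and Kbtbd4 (4.91, the others 5.84 to 6.10). Cohort 2 PDX replicate 3 was low for Klhl24 (8.46) and Klhl5 (3.47). Cohort 3 PDX replicate 2 was low for Klhl24 (8.81), and cohort 4 PDX replicate 3 was low for Kbtbd12 (4.13, the others 4.50 to 4.56). In the diaphragm, cohort 3 PDX replicate 4, one of the 11 arrays high in hepatocyte markers, was low for Klhl31 (8.72, the others 9.36 to 9.56), Klhl41 (8.33), Klhl24 (8.53) and Klhl7 (6.46). Cohort 4 PDX replicate 3, another of those 11, was low for Klhl40 (5.56), and cohort 4 PDX replicate 1 was low for Klhl11 (3.64). Cohort 2 PDX replicate 3 was low for Klhl13 (4.80) and replicate 5 was high for Klhl2 (6.02).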

How the results depend on the processing

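Values below are counts of members called, with 8 in the tibialis anterior, 14 in the diaphragm, 9 for the difference of tumour effects and 25 for sham diaphragm against sham limb in the fits reported. With cohort as the replicate, 5 members passed in the limb (Kbtbd13, Klhl23, Klhl29, Klhl34 and Klhl38) and 5 in the diaphragm (Kbtbd12, Klhl23, Klhl30, Klhl31 and Klhl33). The tendon covariate left 0 in the limb and turned Klhl11 to -0.078 and Klhl21 to -0.048, while the 4 members that fell kept differences of -0.56 to -0.38; the cause was not tested. Leaving out cohorts 1, 2, 3 and 4 gave 6, 9, 9 and 7 in the diaphragm, with fewer samples; without cohort 1 there were 2 for the difference and 15 for the sham muscles. Without diaphragm arrays high in hepatocyte markers, 9 passed in the diaphragm and 15 in the sham muscles, and the hepatocyte covariate gave 15 there. Leaving out 1 array gave 6 to 10 in the limb, 11 to 15 in the diaphragm, 9 throughout for the difference and 23 to 26 in the sham muscles. With the replicate number as a block, 7 passed in the limb, 11 in the diaphragm, 9 for the difference and 25 in the sham muscles; of 29 muscle pairs 13 correlated best with their own number, and of 24 sham and PDX pairs 6 did. The F tests gave 0 in every setting run. Signal near the median of all probe sets limits the 12 dim members.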

Other observations

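BTB-kelch genes that carry other names were read from a list of 7, of which 6 were measured. In the tibialis anterior 0 of 6 were called, beside 12.8% of all genes, with 1 at an unadjusted limma p under 0.05. In the diaphragm, where 12.5% of all genes were called, Enc1, an actin-associated kelch gene of neurons, rose 2.04-fold and Ipp fell by 0.33 on the log2 scale. Enc1 ran from 4.69 to 5.45 (median 4.93) in sham and from 5.02 to 7.35 (median 6.06) in PDX diaphragm, overlapping at the low end, and its effects differed between the muscles by 1.09 (limma adjusted p = 0.00158). In sham mice, Keap1, the adaptor that holds the antioxidant factor Nrf2 in check, was lower in the diaphragm (-0.38), Ipp was lower (-0.35) and Ivns1abp was higher (0.61).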
